A study of Bos taurus with 16 samples.

Results

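The genes described here encode the extracellular matrix of the uterus, the receptors by which cells hold on to it and the proteases that remodel it. They were chosen by name from the annotation of a bovine expression array: collagens, laminins, integrins, matrix metalloproteinases (MMP), their tissue inhibitors (TIMP), ADAM and ADAMTS proteins, urokinase (PLAU) and its receptor (PLAUR), and SPARC, FN1, MGP, VIM and THY1. The rule found 161 probe sets of 87 genes, out of 13292 probe sets of 9155 genes that carry a single gene symbol on the array and 24016 probe sets in all without controls. The rule itself uses gene names and no measured value.

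The study asked how subclinical inflammation of the uterus changes the endometrium and the early embryo of the cow. From each of 49 superovulated cows a brush was used to collect endometrial cells 2 h before insemination, on day 0, and again on day 7, just before embryos were flushed. Cows with no neutrophils in the brush sample were classed as healthy endometrium (HE) and those with any as subclinical endometritis (SE). RNA was pooled by class, so that each array holds a pool of cows or of 10 embryos and not a single animal.

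The groups were SE endometrium on day 7 with 3 arrays, HE endometrium on day 7 with 2, SE endometrium on day 0 with 3, HE endometrium on day 0 with 3, blastocysts flushed on day 7 from SE cows with 3, and blastocysts from HE cows with 2. All cows were superovulated, so every group shares that treatment. The protocol describes 3 pools per class; the 2 arrays of HE blastocysts carry the pool numbers 2 and 3, and a further HE pool of day 7 endometrium and of blastocysts was not analysed here. How many cows made up a pool, and whether a cow contributed to pools of both days, is not stated. The p-values below therefore measure the spread between pools and not between cows. A brush takes cells from the surface, but the mix of cells in the pools was not measured. On the endometrial arrays the epithelial marker list averaged 9.17 to 10.62 log2 units over 8 genes, of which KRT8 read 2.20 to 2.43. Markers of stromal fibroblasts were read too, with DCN at 7.42 to 10.79 and LUM at 6.85 to 9.62. Of 7 endothelial markers 6 stayed below log2 4 on all of these arrays.

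The basement membrane under the uterine epithelium is a sheet of type IV collagen and laminin, to which epithelial cells attach through integrins. Below it lies the stroma, whose fibrillar collagens are made by fibroblasts. MMPs, ADAMTS proteases and the plasmin system, which urokinase starts, cut this matrix, and TIMPs hold them back. In ruminants the conceptus stays free in the uterine lumen for a long time before it attaches, and integrins and their matrix ligands at the surface of the epithelium are studied as part of that attachment.

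The values are log2 signals normalised by the authors. A level of one probe set cannot be set against that of another, because probes bind with different strength, so only the same probe set is compared between arrays. A probe set was kept for testing in a tissue when it exceeded a log2 value of 4 on at least 2 of its arrays. In endometrium 72 of the 161 probe sets, of 50 genes, were kept, 44.7% against 55.9% of all probe sets. Some genes described below, among them COL4A3, COL4A4, LAMC1, MMP19, ITGA5 and ITGB3, also have probe sets that were not kept in endometrium. Their calls rest on the kept probe sets alone. In blastocysts 44 probe sets of 31 genes were kept, 27.3% against 45.9%. Among 87 genes, 35 were kept in neither tissue, among them the neutrophil gelatinase MMP9, the membrane-bound protease MMP14, the stromelysin MMP3, the leukocyte integrin subunit ITGAM, the laminin chains LAMB2 and LAMA4, and COL18A1, the source of endostatin. Medians of the endometrial arrays lay between 4.18 and 4.30. On day 0 the SE pool with replicate number 2 stood somewhat apart, with a mean correlation of 0.962 with its own group against 0.973 for the other 2 pools, and it held the highest difference between the 3' and 5' GAPDH probe sets of that day, 0.578 log2 units, against 0.026 to 0.141 on the other 5 arrays.

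In these genes the calls fell between day 7 and day 0 and not between the classes. With limma, a moderated test across all kept probe sets, 41 of the 72 matrix probe sets differed between day 7 and day 0 in SE endometrium at an adjusted p below 0.05: 11 were higher and 30 lower on day 7. Over all 13421 probe sets tested in that comparison 50.1% passed, 26.0% higher and 24.1% lower. In HE endometrium 35 of the 72 passed, 11 higher and 24 lower, and 45.0% of all probe sets did, 21.8% higher and 23.2% lower. The share of matrix probe sets that passed in either direction was thus close to that of the array, at 56.9% in SE and 48.6% in HE. By direction it was not: 15.3% were higher and 41.7% lower in SE, and 15.3% higher and 33.3% lower in HE. Their median change was -0.64 in SE and -0.26 in HE, against 0.01 and -0.03 for all probe sets tested. A probe set that passed the filter only through one day had to differ between days, so these counts describe the kept probe sets alone: without any filter 34 of all 161 passed in SE and 31 in HE, 21.1% and 19.3%, against 25.8% and 23.4% of all probe sets. By direction these were 10 higher and 24 lower in SE, against 3272 and 2922 of all 24016. In HE they were 11 higher and 20 lower, against 2745 and 2866. The unfiltered median change was -0.015 in SE and -0.013 in HE, against -0.009 and -0.013 for all probe sets. The lean of the medians towards lower values was thus seen in the kept probe sets and hardly without the filter.

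All 11 probe sets that were higher on day 7 in SE were also higher in HE; over all probe sets tested 75.4% of the higher SE calls and 90.0% of the higher HE calls were shared. Of the lower ones 22 were shared, 73.3% of the SE calls and 91.7% of the HE calls, against 78.8% and 82.0% over all probe sets tested. No matrix probe set was called in opposite directions. The SE and HE comparisons share no array, but their spread was estimated together in a fit over all 11 endometrial pools. The calls in the classes are therefore not independent of each other. When each of the 11 pools was left out in turn, 23 probe sets of 18 genes kept their call in both classes under every omission. Higher on day 7 among them were TIMP3, COL4A3, COL4A4, ADAMTS6, ADAM10, ITGB4 and ITGB2. Lower were LAMB3, LAMC1, PLAUR, MMP13, MMP19, TIMP1, TIMP2, ITGA3, ITGB5, ITGB6 and MGP. Of these, COL4A3, COL4A4, LAMB3, MMP19, ITGB6 and some LAMC1 probe sets had no pool of the lower day above the filter level in either class. ADAMTS6 in SE and PLAUR in HE had none either. Such calls numbered 3 of 11 higher and 11 of 30 lower in SE, and 3 of 11 and 9 of 24 in HE. The filter favours them, and leaving out pools does not test that.

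**Figure D1:**
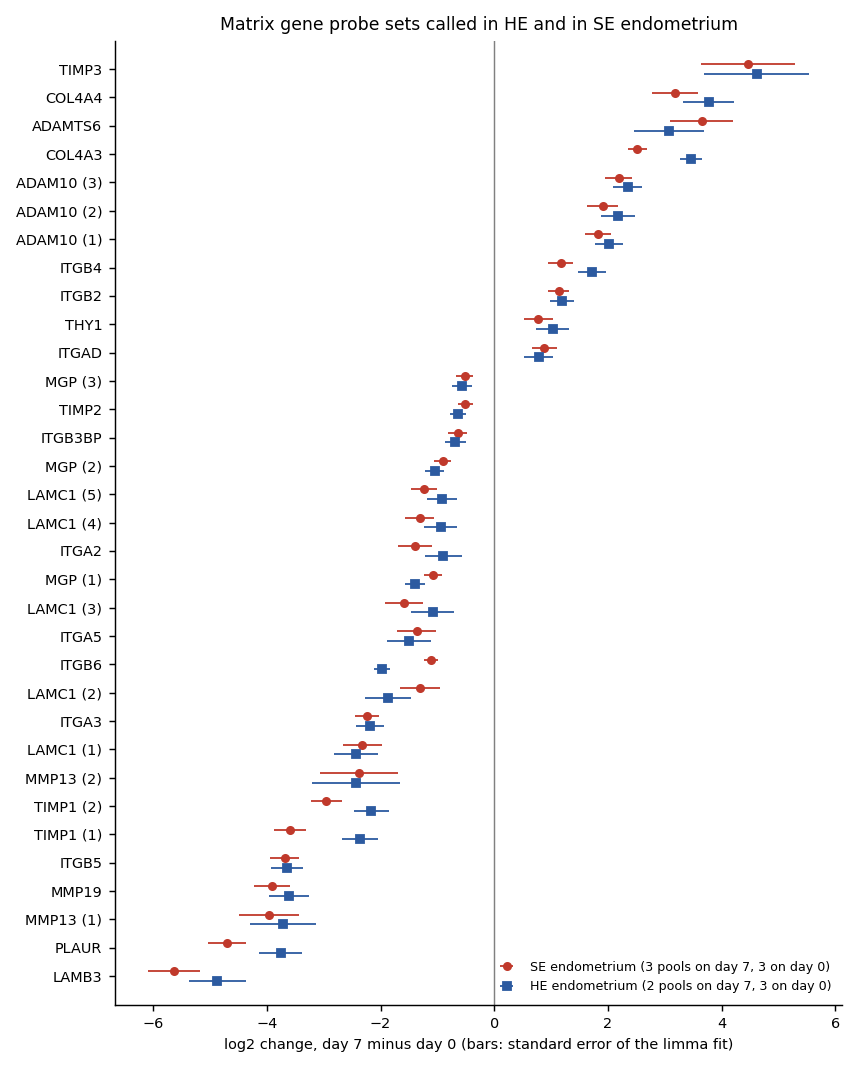
Change of the log2 value from day 0 to day 7 (horizontal axis, day 7 minus day 0) for the 33 matrix probe sets called in both classes, with SE endometrium as circles above HE endometrium as squares and bars for the standard error of the limma fit. A number in brackets separates probe sets of a gene; TIMP3, COL4A4 and ADAMTS6 lie farthest to the right, and LAMB3 and PLAUR farthest to the left.

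Among basement membrane genes, a laminin chain fell and a pair of collagen chains rose. LAMB3, the beta chain of laminin-332, which anchors epithelia through hemidesmosomes, read 2.32, 3.98 and 2.41 on day 7 in SE pools, against 8.56, 9.13 and 7.94 on day 0. LAMB3 read 3.76 and 3.07 on day 7 in HE pools, against 8.45, 7.91 and 8.51 on day 0. The days did not come near each other in either class, and every day 7 pool lay below the level of 4 used as the filter. The fitted change was -5.64 (standard error 0.45, adjusted p = 5.7e-06) in SE and -4.87 (standard error 0.51, adjusted p = 4.25e-05) in HE. LAMC1, the gamma chain shared by most laminins, fell with all 5 of its kept probe sets in both classes. The changes lay between -2.32 and -1.23 in SE and between -2.44 and -0.92 in HE. A further LAMC1 probe set did not pass the filter in endometrium and was not tested. Its probe set with the largest change averaged 3.02 ± 0.03 on day 7, against 5.34 ± 0.69 on day 0 in SE pools (SD, n = 3 each). In HE pools that probe set averaged 3.29 ± 0.38 (SD, n = 2) on day 7, against 5.73 ± 0.49 (SD, n = 3) on day 0. Of the 5 probe sets 3 lost their HE call without the HE day 7 pool 1, with changes of -0.60, -1.02 and -0.83, and each of these 3 lost it without further pools too, the HE day 0 pool 1 among them. LAMB1, the beta chain of the common laminins, overlapped between days in both classes, at 6.52, 5.42 and 4.54 on day 7 against 6.06, 5.83 and 5.52 on day 0 in SE pools, and was not called.

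COL4A3 and COL4A4 encode type IV collagen chains of the specialised network known from kidney, lung and cochlea, and they are neighbours on the chromosome in the RefSeq annotation. COL4A3 read 4.81, 5.03 and 4.39 on day 7 in SE pools, against 2.20, 2.22 and 2.26 on day 0. COL4A3 read 5.85 and 5.52 on day 7 in HE pools, against 2.26, 2.20 and 2.23 on day 0. On day 0 all 6 pools sat at the bottom of the scale, and on day 7 all 5 were above 4. The change was 2.52 (standard error 0.17, adjusted p = 1.98e-06) in SE and 3.46 (standard error 0.19, adjusted p = 1.03e-06) in HE. COL4A4 read 5.80, 6.91 and 6.79 on day 7 against 3.43, 3.81 and 2.74 on day 0 in SE pools, a change of 3.18. In HE pools it read 6.71 and 7.74 on day 7 against 3.82, 2.98 and 3.55 on day 0, a change of 3.77. The array holds another probe set for each of COL4A3 and COL4A4. These did not pass the filter in endometrium and were not tested, so each rise rests on a single probe set. COL4A1, a chain of the common type IV network, did not follow them: its 2 probe sets overlapped between days in both classes, the brighter one with 7.79, 7.42 and 6.62 on day 7 against 8.56, 7.49 and 7.68 on day 0 in SE pools.

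**Figure D2:**
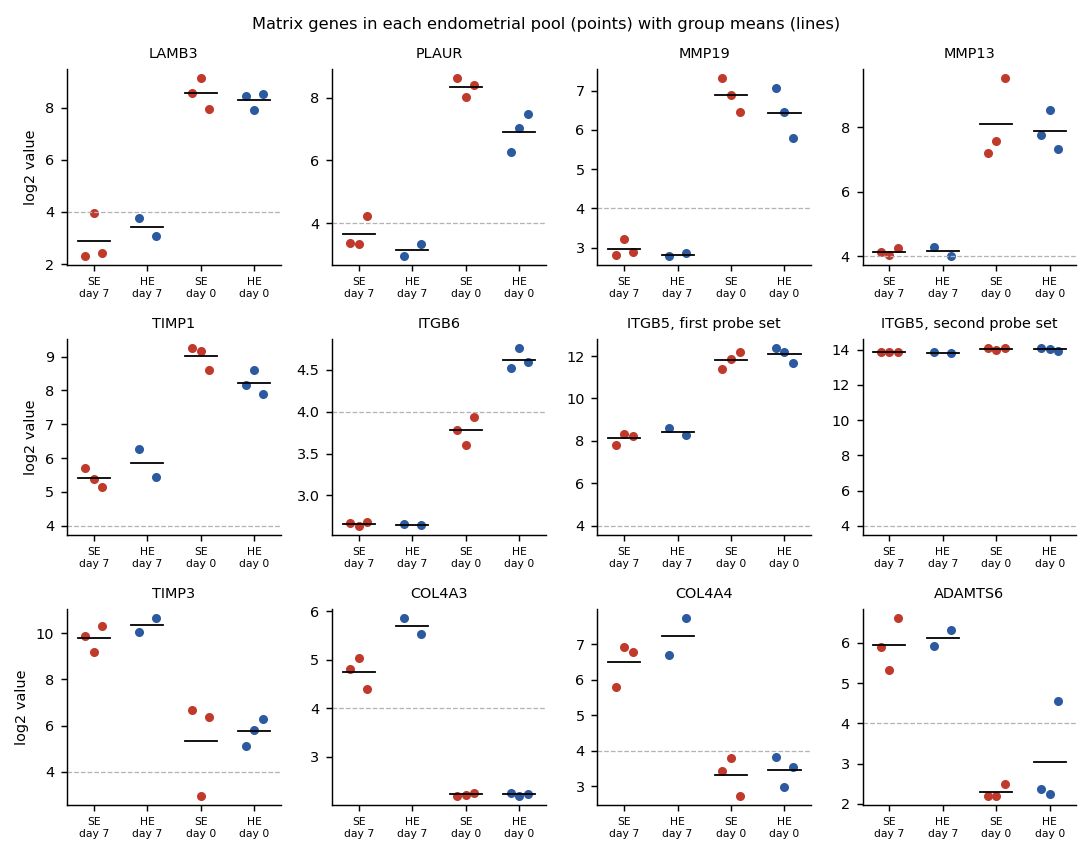
Log2 value (vertical axis, a separate scale in each panel) of 12 probe sets in every endometrial pool, with SE day 7, HE day 7, SE day 0 and HE day 0 from left to right, a point per pool, a black line at the group mean and a dashed line at the filter level of 4. The days do not overlap in any panel, but the second ITGB5 probe set stays near 14 in all groups, with the days close together.

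Among the metalloproteinases MMP19 and MMP13 fell on day 7 in both classes. MMP19, a secreted metalloproteinase with basement membrane substrates, read 2.82, 3.21 and 2.90 on day 7 in SE pools, against 7.32, 6.88 and 6.45 on day 0. MMP19 read 2.79 and 2.86 on day 7 in HE pools, against 7.08, 6.46 and 5.78 on day 0. The change was -3.91 in SE (standard error 0.31, adjusted p = 5.73e-06) and -3.62 in HE (standard error 0.35, adjusted p = 2.75e-05). Every day 7 pool lay below the filter level of 4, so MMP19 passed the filter through day 0 alone. MMP13, a collagenase that cuts fibrillar collagen, read 4.14, 4.02 and 4.25 on day 7 in SE pools, against 7.20, 7.57 and 9.52 on day 0. MMP13 read 4.29 and 4.02 on day 7 in HE pools, against 7.77, 8.54 and 7.31 on day 0. The day 7 pools of both classes lay between 4.02 and 4.29, just above the filter level. A second MMP13 probe set changed by -2.37 in SE and -2.43 in HE. That HE call was lost when the HE day 0 pool 1 or 2 or either HE day 7 pool was left out, with changes between -2.45 and -1.87, and the SE change was -1.53 without the SE day 0 pool 3. MMP1, the interstitial collagenase, read 3.07, 2.98 and 3.44 on day 7 in SE pools, against 4.15, 5.13 and 7.01 on day 0, a change of -2.27 (adjusted p = 0.00705) that was -1.48 without the SE day 0 pool 3. In HE pools MMP1 read 3.01 and 2.99 on day 7, against 4.42, 4.82 and 4.33 on day 0; this comparison did not pass. MMP23, a membrane-anchored family member, passed in HE alone, with changes of -1.26 and -1.12 for its 2 probe sets; both calls were lost without the HE day 7 pool 1, the second also without the HE day 0 pool 1 or 2, and the difference between the classes was not called in the interaction test. MMP2, gelatinase A, was not called in either class. Its SE pools read 7.31, 7.01 and 4.96 on day 7, against 5.24, 3.73 and 4.51 on day 0, and its HE pools 4.88 and 7.21 on day 7, against 3.68, 3.71 and 4.76 on day 0.

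Inhibitors of these proteases went in both directions. TIMP3, the inhibitor that is itself bound to the matrix, read 9.90, 9.19 and 10.30 on day 7 in SE pools, against 6.66, 2.96 and 6.38 on day 0. TIMP3 read 10.07 and 10.66 on day 7 in HE pools, against 5.12, 5.83 and 6.29 on day 0. The lowest value, 2.96, belongs to the SE day 0 pool 2, the array that stood apart. The rise was 4.46 in SE (standard error 0.82, adjusted p = 0.00137) and 4.62 in HE (standard error 0.92, adjusted p = 0.00257). TIMP1, a soluble inhibitor, moved the other way: one of its probe sets read 5.72, 5.39 and 5.13 on day 7 in SE pools, against 9.25, 9.18 and 8.60 on day 0. In HE pools the same probe set read 6.27 and 5.44 on day 7, against 8.16, 8.62 and 7.88 on day 0. Both TIMP1 probe sets fell, by -3.60 and -2.95 in SE and by -2.36 and -2.16 in HE. Of 3 TIMP2 probe sets the one with the highest signal fell a little, by -0.51 in SE and -0.64 in HE, while the other 2 were not called; on the mean of the 3 probe sets the change was -0.27 and -0.17 and did not pass in either class.

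The message of the urokinase receptor fell, while urokinase itself was not called. PLAUR, which holds urokinase at the cell surface, read 3.36, 3.35 and 4.23 on day 7 in SE pools, against 8.62, 8.01 and 8.42 on day 0. PLAUR read 2.97 and 3.36 on day 7 in HE pools, against 6.26, 7.02 and 7.47 on day 0. The change was -4.70 in SE (standard error 0.34, adjusted p = 2.78e-06) and -3.76 in HE (standard error 0.38, adjusted p = 3.43e-05). PLAU overlapped between days, with 8.97, 9.18 and 8.36 on day 7 against 9.75, 8.40 and 9.98 on day 0 in SE pools, and 8.63 and 9.09 on day 7 against 8.77, 8.33 and 8.66 on day 0 in HE pools. Neutrophils carry PLAUR, and the neutrophil marker list (4 of its 10 genes are on the array, all above the filter) averaged 5.44 to 6.99 on day 7 against 7.85 to 11.19 on day 0 in SE pools, and 4.73 to 6.58 against 5.79 to 8.93 in HE pools. In pools of mixed cells, fewer cells of a type and less RNA per cell cannot be told apart, and the part of the neutrophil markers in the PLAUR change was not tested.

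ADAM10 and ADAMTS6 rose. ADAM10, the sheddase that releases cell surface proteins such as Notch and E-cadherin fragments, rose with all 3 of its probe sets, by 1.82 to 2.18 in SE and 2.02 to 2.34 in HE. Its brightest probe set read 12.79, 12.44 and 12.76 on day 7 in SE pools, against 11.05, 10.85 and 10.62 on day 0. ADAM10 read 12.59 and 13.36 on day 7 in HE pools, against 10.81, 10.86 and 11.20 on day 0. Every day 7 pool lay above every day 0 pool in both classes. ADAMTS6, a secreted protease of the thrombospondin-repeat family, read 5.90, 5.33 and 6.61 on day 7 in SE pools, against 2.20, 2.20 and 2.50 on day 0, a change of 3.64. ADAMTS6 read 5.92 and 6.31 on day 7 in HE pools, against 2.36, 2.24 and 4.55 on day 0, a change of 3.07. ADAM9, a related membrane protease, was called lower in SE for 2 of 3 probe sets, by -0.78 and -0.65, and both calls were lost without the SE day 0 pool 2 or without the SE day 7 pool 2. ADAMTS1, which cleaves versican, ranged from 3.80 to 6.25 on day 7 and from 5.96 to 6.99 on day 0 in SE pools, and from 5.94 to 6.37 against 4.27 to 6.97 in HE pools, and was not called.

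Integrin subunits of epithelium changed in both directions. ITGB4, the hemidesmosome subunit that binds laminin-332, rose while its ligand chain LAMB3 fell: it read 7.39, 7.91 and 7.22 on day 7 in SE pools, against 6.46, 6.63 and 5.93 on day 0. In HE pools ITGB4 read 7.91 and 8.23 on day 7, against 6.35, 6.44 and 6.26 on day 0. Its changes were 1.16 in SE (adjusted p = 0.00178) and 1.72 in HE (adjusted p = 0.000383). ITGA3, the alpha subunit of the other main laminin-332 receptor, read 5.13, 4.99 and 5.32 on day 7 against 7.13, 7.67 and 7.35 on day 0 in SE pools. ITGA3 averaged 5.28 ± 0.40 on day 7 in HE pools (SD, n = 2), against 7.46 ± 0.30 on day 0 (SD, n = 3). The fall was close in size in the classes, -2.24 and -2.18.

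ITGB6, an epithelial subunit that pairs with ITGAV and activates latent TGF beta, was near the bottom of the scale on day 7. It read 2.67, 2.64 and 2.68 on day 7 in SE pools, against 3.78, 3.60 and 3.94 on day 0, and 2.65 and 2.64 on day 7 in HE pools, against 4.52, 4.76 and 4.59 on day 0. It passed the filter through the HE day 0 pools alone. ITGB5, a vitronectin receptor subunit that also pairs with ITGAV, gave a divided answer. One of its probe sets read 7.80, 8.33 and 8.22 on day 7 in SE pools, against 11.37, 11.88 and 12.17 on day 0, and 8.60 and 8.28 on day 7 in HE pools, against 12.37, 12.18 and 11.69 on day 0. The other probe set read 13.81 to 13.89 on day 7 and 13.94 to 14.09 on day 0 over both classes. The first changed by -3.69 in SE and -3.64 in HE. The second also lay lower on day 7, but only by -0.16 in SE and -0.20 in HE, and was not called. Which parts of the ITGB5 transcript the 2 probe sets cover was not examined, so the size of the ITGB5 change is uncertain. ITGA2, a collagen receptor subunit, read 7.08, 7.96 and 7.34 on day 7 in SE pools, against 8.93, 8.90 and 8.74 on day 0, a change of -1.40 (adjusted p = 0.00282). Its HE change of -0.90 lost its call under 7 of 11 single omissions (HE day 0 pools 1 and 3, HE day 7 pool 1, all SE day 0 pools and SE day 7 pool 3), with -0.43 without the HE day 7 pool 1. ITGA5, the fibronectin receptor subunit, changed by -1.37 in SE and -1.50 in HE, and the HE change was -0.91 and did not pass without the HE day 7 pool 1. ITGAV, the alpha partner of ITGB5 and ITGB6, passed in SE alone, with changes of -0.73 and -1.02 for its 2 probe sets. Both calls were lost without the SE day 0 pool 1, the SE day 0 pool 2 or the SE day 7 pool 3, and the interaction test did not pass. ITGB3, the vitronectin receptor subunit known from platelets and bone, read 10.61, 10.88 and 10.45 on day 7 in SE pools, against 11.35, 11.29 and 11.19 on day 0. Its HE pools read 10.69 and 11.80 on day 7, against 11.64, 11.42 and 11.10 on day 0, with overlap, and neither comparison passed. ITGB1, the beta subunit with the most partners, read 12.65, 12.66 and 12.74 on day 7 in SE pools, against 12.57, 12.80 and 12.47 on day 0, and was not called in either class.

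Of the leukocyte integrin subunits, ITGB2 and ITGAD were called higher on day 7. ITGB2, the common beta subunit of leukocyte integrins, read 6.50, 6.42 and 6.16 on day 7 in SE pools, against 5.54, 5.18 and 4.97 on day 0. In HE pools ITGB2 read 6.08 and 6.44 on day 7, against 4.97, 4.96 and 5.26 on day 0. The changes were 1.13 in SE (adjusted p = 0.000638) and 1.19 in HE (adjusted p = 0.00113). ITGAD, one of its alpha partners, changed by 0.88 in SE and by 0.78 in HE, and the HE call was lost without the HE day 7 pool 2, the HE day 0 pool 2 or the HE day 0 pool 3 (lowest change 0.56). ITGAL and ITGB7, subunits of lymphocyte integrins, and ITGAE, known from lymphocytes within epithelia, were not called. The neutrophil list ran the other way, as given above for PLAUR, whereas the lymphocyte list (7 of 8 genes on the array, 4 above the filter; GZMB, PRF1 and CD79A did not pass it) averaged 4.35 to 5.80 on day 7 against 4.65 to 5.22 on day 0 in SE pools, and 5.09 to 5.46 against 4.25 to 4.59 in HE pools. The macrophage and dendritic cell list averaged 5.32 to 6.14 against 5.65 to 5.85 in SE pools, and 5.48 to 5.76 against 5.17 to 5.32 in HE pools. Their part in the ITGB2 and ITGAD change was not tested.

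MGP, a small inhibitor of calcification found in matrix, fell on day 7. The probe set with the largest fall that held under every omission read 8.35, 8.02 and 8.22 on day 7 in SE pools, against 9.23, 9.26 and 9.36 on day 0, and 8.01 and 8.15 on day 7 in HE pools, against 9.51, 9.22 and 9.72 on day 0. Of 4 MGP probe sets all passed in SE, with changes of -1.36 to -0.52, and 3 passed in HE, with -1.40 to -0.57. The calls of 2 of them depended on single pools: the one with -0.52 in SE and -0.57 in HE did not pass without the SE day 0 pool 2, the SE day 7 pool 2 or any of 3 HE pools, and the one with -1.36 in SE did not pass without the SE day 0 pool 2 or the SE day 7 pool 2. THY1, a surface glycoprotein of fibroblasts and other cells, changed by 0.78 in SE and 1.03 in HE, with calls that depended on single pools. The SE call was lost without pool 1 or 3 of either day (changes from 0.50 to 1.02 over all omissions), and the HE call without the HE day 0 pool 2 or the HE day 7 pool 1 (0.86 to 1.16).

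Across the day 7 and day 0 comparisons the epithelial marker list moved too. All 8 of its genes are on the array and 7 passed the filter, KRT8 being the exception. The list averaged 9.17 to 9.21 on day 7 against 10.25 to 10.62 on day 0 in SE pools, with 1 marker called higher and 6 lower, and 9.42 to 9.45 against 10.13 to 10.27 in HE pools, with 1 called higher and 4 lower. The difference between 3' and 5' GAPDH probe sets was 0.215 to 0.574 on day 7 against 0.026 to 0.578 on day 0 in SE pools, and 0.273 to 0.389 against 0.056 to 0.141 in HE pools. The part of either in the falls of LAMB3, LAMC1, ITGA3 and ITGB6 was not tested.

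Fibrillar collagens spread widely between pools and had no call between days. Of 7 kept probe sets of 5 genes none passed in SE or HE, and their median change was -0.94 in SE and -0.44 in HE. COL1A1, the main chain of type I collagen, read 6.24, 5.74 and 3.95 on day 7 in SE pools, against 7.52, 5.62 and 6.09 on day 0. COL1A1 read 4.25 and 6.11 on day 7 in HE pools, against 5.50, 4.59 and 7.21 on day 0. The groups overlapped fully, and pools of one group lay up to 2.62 log2 units apart. COL3A1, type III collagen, read 12.03, 10.94 and 9.79 on day 7 in SE pools, against 11.70, 10.08 and 11.22 on day 0 with its brighter probe set. COL3A1 read 9.65 and 11.76 on day 7 in HE pools, against 10.24, 9.11 and 11.38 on day 0. The median range between pools of a group was 2.11 in SE on day 7, 2.11 in HE on day 7, 1.91 in SE on day 0 and 2.01 in HE on day 0 for fibrillar collagen probe sets, against 0.42, 0.26, 0.48 and 0.35 for all probe sets tested.

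Of the 7 fibrillar collagen probe sets 5 had their highest value of every group in the same pools, the exceptions being those of COL27A1 and COL5A2. In each group one pool had the highest mean of the stromal fibroblast marker list: pool 1 of SE day 7 (5.52), pool 2 of HE day 7 (5.30), pool 1 of SE day 0 (5.33) and pool 3 of HE day 0 (4.84), against lowest pools at 4.34, 4.14, 4.64 and 4.16. All 8 markers are on the array and 5 passed the filter (DCN, LUM, PDGFRA, OGN and PCOLCE), while PDGFRB, DPT and TCF21 did not. Of the 72 matrix probe sets, 13 had their highest value of every group in the same 4 pools, 18.1% against 2.84% of all probe sets tested. They were COL1A1, both COL1A2 and both COL3A1 probe sets, COL6A1, COL15A1, the brighter COL4A1 probe set, SPARC, VIM, MMP2, ITGB2 and 1 of the ADAM10 probe sets. Only ITGB2 and ADAM10 among them were called between days. SPARC, a collagen-binding matricellular protein, read 7.86, 6.54 and 6.15 on day 7 in SE pools, against 7.73, 6.20 and 7.20 on day 0, and 5.25 and 7.88 on day 7 in HE pools, against 6.74, 5.22 and 6.80 on day 0. The list overlaps in tissue with the genes it is set beside, since fibroblasts make collagen, and its part in their spread was not tested.

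**Figure D3:**
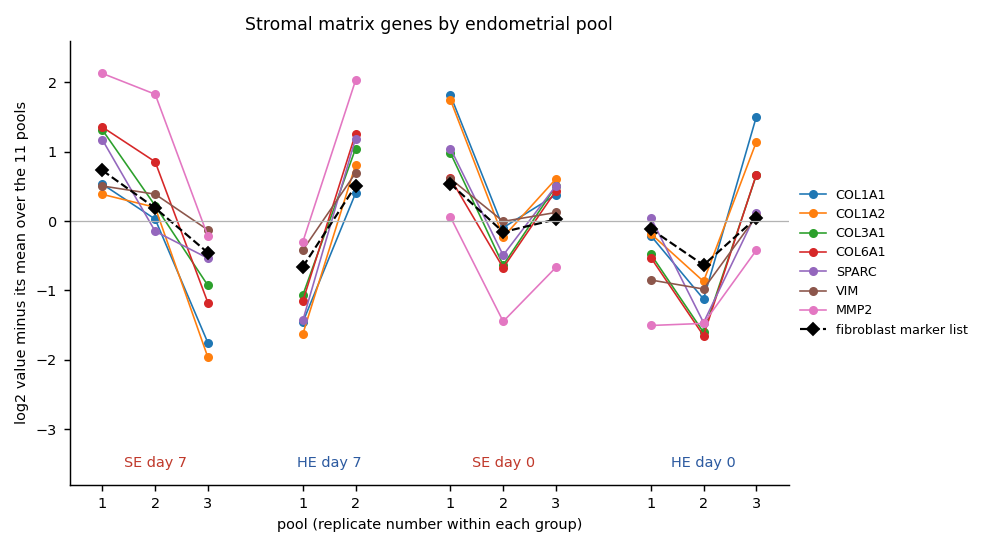
Log2 value minus its mean over the 11 endometrial pools (vertical axis) for 7 stromal matrix genes and, as black diamonds, the mean of the fibroblast marker list, by pool and group (horizontal axis); lines join pools of a group and imply no order. In each group the pool highest for the marker list, 1, 2, 1 and 3 from left to right, is also the highest for the 7 genes, which were drawn because they are among the 13 probe sets that peak in these pools.

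FN1, fibronectin, was not among those 13. It read 7.90, 7.46 and 5.61 on day 7 in SE pools, against 8.38, 9.11 and 7.76 on day 0. FN1 read 7.16 and 7.40 on day 7 in HE pools, against 7.73, 6.96 and 7.76 on day 0. Neither comparison was called. Its highest value, 9.11, came from the SE day 0 pool 2. The same pool carried the highest values of COL21A1 (8.11), COL12A1 (5.96) and COL27A1 (7.68). COL12A1 and COL21A1, collagens that sit on the surface of fibrils, were called lower on day 7 in SE, by -1.79 and -2.85, but both calls rest on that pool among others: without it the changes were -0.96 and -1.66 and neither passed, and they were lost under 10 and 9 of the 11 single omissions.

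Genes that build and bind the matrix outside these families were read from 5 lists of 129 genes, of which 98 are on the array and 78 were tested in endometrium by their brightest probe set. In SE 16 were called higher and 29 lower on day 7, and in HE 18 higher and 26 lower. Over all probe sets tested 26.0% were higher and 24.1% lower in SE, and 21.8% higher and 23.2% lower in HE, and the counts by list below stand against the same shares. The shares cover every kept probe set and the lists only the brightest of each gene, so the match is rough. In collagen synthesis and crosslinking 4 of 16 were higher and 8 lower in SE, and 3 higher and 8 lower in HE. In protease control 3 of 13 were higher and 7 lower in SE, and 3 higher and 6 lower in HE. Among other matrix receptors and adhesion genes 3 of 19 were higher and 7 lower in SE, and 4 higher and 8 lower in HE. Proteoglycans and matrix glycoproteins went the other way, with 4 of 19 higher and 3 lower in SE, and 5 higher and 1 lower in HE. In TGF beta signalling 2 of 11 were higher and 4 lower in SE, and 3 higher and 3 lower in HE. PLAT, tissue plasminogen activator, averaged 7.99 ± 0.53 on day 7, against 11.95 ± 0.41 on day 0 in SE pools (SD, n = 3 each). In HE pools PLAT averaged 7.90 ± 1.56 (SD, n = 2) on day 7, against 11.72 ± 0.07 (SD, n = 3) on day 0. Its changes were -3.96 (adjusted p = 9.35e-05) and -3.82 (adjusted p = 0.000318). SDC2, a heparan sulphate proteoglycan of the cell surface, changed by -3.89 in SE (adjusted p = 7.47e-07) and -4.30 in HE (adjusted p = 1.28e-06).

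CD44, the hyaluronan receptor, changed by -3.05 in SE and -2.27 in HE, and TNC, tenascin C, by -3.27 in SE and -3.57 in HE. SMAD3, which carries TGF beta signals to the nucleus, changed by -3.21 in SE and -2.30 in HE. On the rising side EFEMP1, a fibulin, changed by 3.23 in SE and 4.01 in HE, and HPSE, heparanase, by 2.80 in SE and 3.86 in HE. CAV1, the caveolar coat protein, changed by 3.79 in SE and 3.84 in HE. TGM2, a crosslinking transglutaminase, changed by 3.47 in SE and 3.60 in HE, where it was 2.83 with an adjusted p of 0.0523 without the HE day 7 pool 2. THBS1, an activator of latent TGF beta, averaged 12.49 ± 0.14 on day 7 against 9.54 ± 0.11 on day 0 in SE pools (SD, n = 3 each), a change of 2.94. The HE change of the same probe set was 2.79. A dimmer THBS1 probe set did not share these rises (-1.50 in SE, adjusted p = 0.0941, and -0.72 in HE, adjusted p = 0.478). In none of the 78 did the difference between classes pass on day 7 or on day 0.

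Between the classes, no matrix probe set passed. On day 7, 0 of 72 were called in SE against HE, as were 0% of all probe sets tested. There 8 members (11.1%) had an unadjusted p below 0.05, against 3.55% of all. On day 0, 0 of 72 were called against 0.0224% of all, and 12 (16.7%) had an unadjusted p below 0.05, against 7.60% of all. The test of whether the class difference changed between days (the interaction) called 0 of 72 and 0% of all. In it 4 members (5.56%) had an unadjusted p below 0.05, against 3.92% of all. The groups did not overlap for 4 probe sets that were higher and 12 that were lower in SE on day 7, 5.56% and 16.7%, where 7.93% and 8.33% of all probe sets did so. On day 0 it was 4 higher and 6 lower, 5.56% and 8.33%, against 3.58% and 9.24% of all.

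The smallest p-value on day 7 belonged to COL4A3. As given above, SE pools read 4.39 to 5.03 and HE pools 5.52 and 5.85, a difference of -0.94 (standard error 0.19, adjusted p = 0.488). COL4A4 overlapped, with 5.80, 6.91 and 6.79 in SE and 6.71 and 7.74 in HE. ITGAV, the alpha subunit shared by the vitronectin receptors, had both probe sets without overlap on day 7, the brighter at 8.31, 7.48 and 7.47 in SE and 8.82 and 8.68 in HE, with differences of -0.996 and -0.87 and adjusted p-values of 1. ADAM9 read 3.70, 3.59 and 3.61 in SE and 4.20 and 4.27 in HE with one probe set, a difference of -0.60. One ADAM10 probe set read 10.95, 11.46 and 11.10 in SE and 11.82 and 12.17 in HE, while the other 2 overlapped. ITGAD read 4.68, 4.76 and 4.84 in SE and 3.93 and 4.38 in HE, a difference of 0.61.

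On day 0 ITGB6 came nearest to the threshold. Its SE pools, 3.78, 3.60 and 3.94, all lay below the HE pools, 4.52, 4.76 and 4.59, a difference of -0.84 (standard error 0.13, adjusted p = 0.161). Without the filter on low values the same difference had an adjusted p of 0.04, and it was the sole one of 161 matrix probe sets called there, where 0.0291% of all 24016 probe sets were called. All 3 SE pools were below the filter level of 4. PLAUR read 8.62, 8.01 and 8.42 in SE against 6.26, 7.02 and 7.47 in HE, a difference of 1.43 (standard error 0.34, adjusted p = 0.473). The neutrophil marker list, at 7.85 to 11.19 in SE and 5.79 to 8.93 in HE on that day, moved the same way with overlap, and its part was not tested. TIMP1 had differences of 0.79 and 0.63 for its 2 probe sets, the first with overlapping groups. MMP23 had differences of -0.97 and -0.85, the first with pools at 6.15, 6.32 and 6.35 in SE and 7.76, 7.45 and 6.52 in HE. VIM, the filament protein of mesenchymal cells, read 10.36, 9.75 and 9.87 in SE and 8.90, 8.77 and 9.82 in HE, with overlap. All 7 fibrillar collagen probe sets averaged higher in SE on day 0, with a median difference of 0.76, but 6 of them overlapped between the classes. All 5 kept markers of the stromal fibroblast list averaged higher in SE on that day too, with a median difference of 0.51, none of them called, and their part was not tested.

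**Figure D4:**
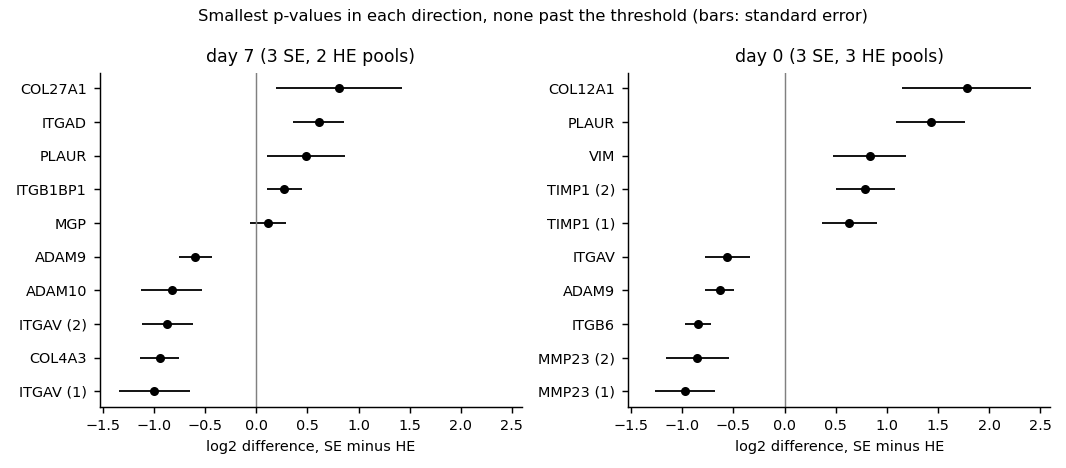
Difference of the log2 value between SE and HE endometrium (horizontal axis, SE minus HE) with its standard error, on day 7 (left) and day 0 (right), for the 5 matrix probe sets of smallest p-value in each direction. None passed the adjusted threshold; among those shown the largest differences are those of ITGAV and COL4A3 on day 7 and of COL12A1 and PLAUR on day 0.

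The interaction test gave its smallest p-value to ITGB6, at 0.86 (standard error 0.20, adjusted p = 0.906), followed by COL4A3 at -0.94, TIMP1 at -1.23 and MGP at -1.48, each with an adjusted p of 1. These are the difference SE minus HE on day 7 less that on day 0. The fall of TIMP1 given above for SE and for HE was therefore not shown to differ between the classes.

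Blastocysts, the embryos at the stage when trophectoderm and inner cell mass have formed, were tested apart from the endometrium. Blastocyst markers matched the label: the 4 trophectoderm genes on the array averaged 9.03 to 10.35 in SE and 9.38 to 9.86 in HE pools, and neutrophil and macrophage genes lay below the filter on every blastocyst array. Their lowest value, 2.20, is shared by many probe sets, and 78 of the 161 matrix probe sets sat at it on all 5 arrays, 48.4% against 27.9% of all probe sets. Probe sets of VIM, ITGB4, ITGB6, LAMB3, COL4A3, COL4A4, MMP1, MMP13 and MMP19 were among them. The other COL4A3 probe set sat at it on 0 of the 5 arrays, and the other MMP13 probe set on 4. The difference between 3' and 5' GAPDH probe sets was 5.47 to 5.85 in SE and 4.97 to 5.11 in HE blastocysts, whose RNA was amplified in 2 rounds from 15 ng. The same starting amount of 15 ng is given for the endometrial arrays.

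Several matrix genes were read well above the filter in blastocysts. FN1, fibronectin, read 14.18, 14.44 and 14.17 in SE pools and 13.99 and 14.14 in HE pools. ITGB1 read 13.36, 13.36 and 13.43 in SE and 13.51 and 13.22 in HE, and PLAU read 12.83, 11.80 and 12.45 in SE and 12.06 and 11.75 in HE. These spreads overlapped between the classes for ITGB1 and PLAU, and FN1 pools of SE lay just above those of HE, a difference of 0.20 with an adjusted p of 0.645. LAMB1 read 9.92, 9.64 and 9.46 in SE and 9.86 and 9.67 in HE. TIMP1 read 11.30, 10.94 and 10.57 in SE and 10.54 and 10.66 in HE.

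No matrix probe set passed between blastocysts of SE and HE cows: 0 of 44 were called, as were 0% of all 11014 tested, and 5 had an unadjusted p below 0.05, 11.4% against 9.34% of all. The groups did not overlap for 2 that were higher and 6 that were lower in SE, 4.55% and 13.6%, where 12.4% and 12.6% of all did so. LAMC1 had the smallest p-value through a dim probe set, which read 5.13, 4.66 and 4.10 in SE and 6.11 and 5.96 in HE, a difference of -1.40 (standard error 0.34, adjusted p = 0.412). Its brightest probe set read 10.87, 10.12 and 10.12 in SE and 10.27 and 10.25 in HE, so the LAMC1 probe sets disagreed. COL4A1 read 11.85, 11.98 and 11.70 in SE and 11.42 and 11.16 in HE, a difference of 0.56 (adjusted p = 0.437), with its brighter probe set; the other overlapped, with a difference of -0.02. THY1 read 8.47, 9.09 and 8.90 in SE and 9.74 and 9.60 in HE, a difference of -0.85 (adjusted p = 0.425). For MGP 2 of the 3 kept probe sets had no overlap, with differences of -0.83 and -1.33. TIMP2 read 9.17, 8.98 and 8.30 in SE and 9.95 and 9.20 in HE, with a difference of -0.75. The GAPDH 3' to 5' difference above also separated the classes. So did the inner cell mass list (2 of its 4 genes are on the array, both above the filter), with means of 8.18, 9.04 and 8.46 in SE and 9.12 and 9.08 in HE pools. The part of either in these differences was not tested.

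**Figure D5:**
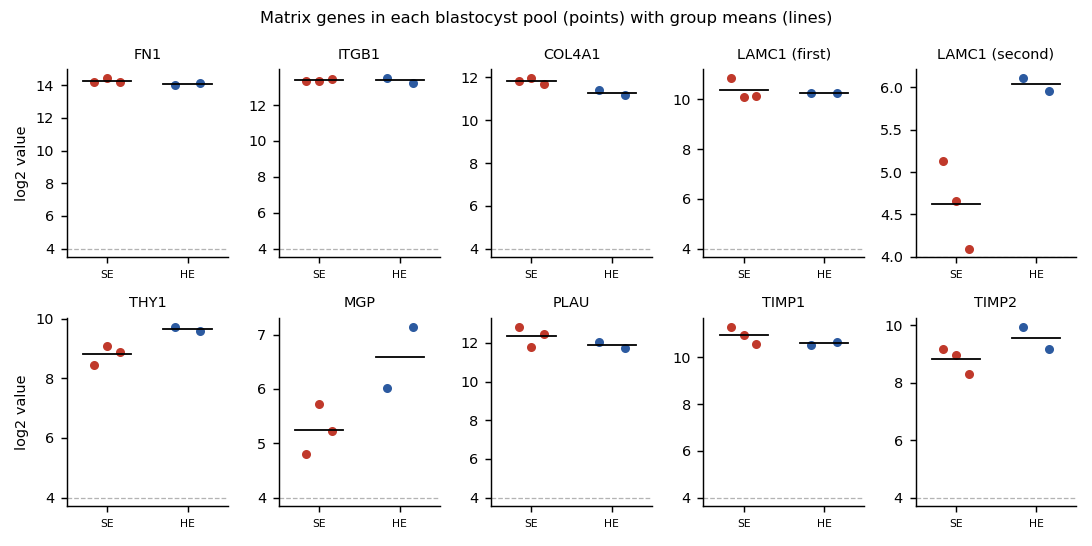
Log2 value (vertical axis, a separate scale in each panel) of 10 matrix probe sets in every blastocyst pool, SE left and HE right, with a black line at the group mean and a dashed line at the filter level of 4. SE and HE pools do not overlap for FN1, COL4A1, the second LAMC1 probe set, THY1, MGP and TIMP2, and none of these differences passed.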

How the data were processed

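RNA from pooled endometrial brush samples (11 arrays) and pooled blastocysts (5 arrays) was hybridised to an Affymetrix bovine array. The deposited values are log2 signals, normalised by the authors with GCRMA, which the submitters' processing notes name beside limma, without versions or order; no source used here gives a genome build. Whether both tissues were normalised together is not stated, so they were never compared. Array values carry no read depth, and the number of pools limits the precision.

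From these values, 112 control probe sets were left out and probe sets above log2 4 on at least 2 arrays of a tissue were kept. Each tissue was fitted apart over all its groups with limma 3.58.1 in R 4.3.3 (lmFit, eBayes, without trend), and p-values were adjusted by Benjamini-Hochberg over all kept probe sets, with a threshold of 0.05. The scripts were tested on simulated data. Gene names come from the platform annotation; all 161 gene numbers were found in the RefSeq table (ARS-UCD2.0) with 0 changed symbols. Marker lists were averaged over all their genes on the array. The members and lists were chosen with earlier results of these data known. Genes are named by rule: up to 12 calls of largest change per direction and comparison, or the 5 of smallest p where fewer passed, and genes picked by role. The deviations of same-numbered pools from their group means correlated between groups from -0.272 to 0.239, with both signs. With 2 or 3 pools a group, deviations within a group are tied to each other, so these correlations cannot decide whether pools are paired. Because no source used here states a pairing, the numbers were not taken as pairs. Alternatives were other filters, array weights, quantile normalisation, eBayes with trend, gene means, fits on only the compared groups, the replicate block and leaving out each pool. Figures were drawn with matplotlib 3.10.9 in Python 3.11.15.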

Additional observations from a re-analysis of the deposited data

How the results depend on the processing

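The counts of matrix probe sets called between days stayed within 1.5 times of 41 in SE and 35 in HE under all alternatives run. They were lowest on the means over the probe sets of a gene, which test fewer features, with 28 in SE and 24 in HE. With a filter at log2 5 the counts were 37 and 31, and in fits on the compared groups alone 37 and 36. Leaving out each pool in turn gave 34 to 41 in SE, lowest without the SE day 0 pool 2 or the SE day 7 pool 2, and 29 to 37 in HE, lowest without the HE day 0 pool 1 or the HE day 7 pool 1; it gave 0 to 0 for both class comparisons, the interaction and the blastocysts. With the replicate number as a block the counts were 42 in SE and 31 in HE, and 0 in the other comparisons. Whether same-numbered pools share more than a number is not stated. Without the filter 1 matrix probe set, ITGB6, was called between SE and HE on day 0 (-0.84, adjusted p = 0.04), 1 of 161 where 0.0291% of all probe sets were called, and the filtered test called 0. Under gene means the MGP probe set at 0.11 on day 7 became -0.183 for SE against HE, its interaction was -0.242, and that of one LAMC1 probe set was -0.101, each with its sign turned and none called in either form; gene means average different probe sets. The number of pools, 2 or 3 a group, and the low end of the scale, where the values carry no detection call, limit the precision.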
